A study of Saccharomyces cerevisiae with 8 samples.

Results

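The large subunit of the yeast cytosolic ribosome is built on its ribosomal RNAs by proteins named Rpl and by the acidic stalk proteins named Rpp. The genes for them were taken from the deposited gene table by symbol, RPL followed by a number with or without a final A or B, together with RPP0, RPP1A, RPP1B, RPP2A and RPP2B. This gave 81 genes of the 6936 entries of the table, encoding 46 proteins: 35 proteins had an A and a B gene and 11 a single gene. Of the 81 genes, 53 have an intron in the coding sequence.

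Ribosomal protein genes are among the most strongly transcribed genes of growing budding yeast, and their transcripts are known to fall when nutrients run short. The transcription factor Rap1 binds upstream of most of them and recruits Fhl1 and its coactivator Ifh1, while Crf1 is known, in some strains, as a corepressor acting at the same sites. Most of the duplicated genes date from the whole-genome duplication of the yeast lineage, and the copies encode identical or nearly identical proteins that take the same place in the ribosome. The poly(A) tail of an mRNA is bound by the poly(A)-binding protein and is shortened during the life of the transcript in the cytoplasm.

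RNA came from the haploid laboratory strain BY4741 (genotype MATa his3Δ1 leu2Δ0 met15Δ0 ura3Δ0), the background of every library. The Log phase group was harvested from liquid medium in mid log phase, and the groups Day 2, Day 3 and Day 4 were colonies grown on solid medium from the same kind of culture for 2, 3 or 4 days, with 2 libraries per group and 8 in all. The assay, PAT-seq, reads transcripts at their 3′ ends and into the poly(A) tail, and gave read counts and mean tail lengths per gene. Growth form, medium and time differ together between the colonies and Log phase, and their effects cannot be told apart. A colony library is a mixture, so fewer cells with a transcript and less transcript per cell cannot be told apart either. The labels do not tell whether the 2 libraries of a group had cultures of their own, so the p-values here reflect the spread between libraries, which may be technical.

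Libraries held 6203115 to 8441949 counts. MET17, the gene deleted by met15Δ0, had 0 counts in all 8 libraries, LEU2 had 0 to 10 and URA3 0 to 8, while the entry with HIS3 is merged with its neighbours and gives no check. For 5 of the 81 genes the assignment of reads is uncertain. RPL21A is counted in an entry merged with the overlapping gene YBR190W, and the counts of RPL8A, RPL38, RPL6B and RPL9B differed by more than 10% from the reads of the gene table. A and B copies are close in coding sequence, from 69.2% identity for RPP1 to 99.4% for RPL1, but over the 150 bases after the stop codon their identity was 41.2% to 53.5% and their longest shared run was 14 bases (RPL13). Values for copies of a pair still carry some uncertainty, because reads that end within the coding sequence could match both.

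The RPL9 and RPL15 pairs, each with copies that fell by different amounts, show how near the copies are at the end of the coding sequence. The last 30 coding bases, stop codon included, are given 5′ to 3′ from the RefSeq R64 genome, with bases that differ between the copies in capitals. For RPL9 they lie at chrVII:227754-227783 on the minus strand (RPL9A) and chrXIV:500227-500256 on the plus strand (RPL9B).
RPL9A: cacaagggtttTattACTgaagaTTtAtaa
RPL9B: cacaagggtttCattGTCgaagaCAtGtaa
For RPL15 they lie at chrXII:201976-202005 (RPL15A) and chrXIII:509734-509763 (RPL15B), both on the minus strand.
RPL15A: actTtgtcCttGtggagAtaCagaaaatAa
RPL15B: actCtgtcGttAtggagGtaTagaaaatGa
The RPL9 copies differed at 7 of these positions and the RPL15 copies at 6.

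Large-subunit transcripts took up a large share of the counts in growing cells and far less in colonies. Their summed share of all counts was 19.93% and 20.66% in the Log phase libraries, 9.732% and 9.903% on Day 2, 5.31% and 5.445% on Day 3, and 4.1% and 3.827% on Day 4. The groups did not overlap at any step, and the share was lower at each later day. The median gene stood at 2405 CPM (counts scaled to a common library size with TMM factors) in Log phase and at 837.5 on Day 2, then at 441.7 on Day 3 and 304.4 on Day 4. Reads come from 3′ ends, so CPM is not divided by gene length.

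**Figure D1:**
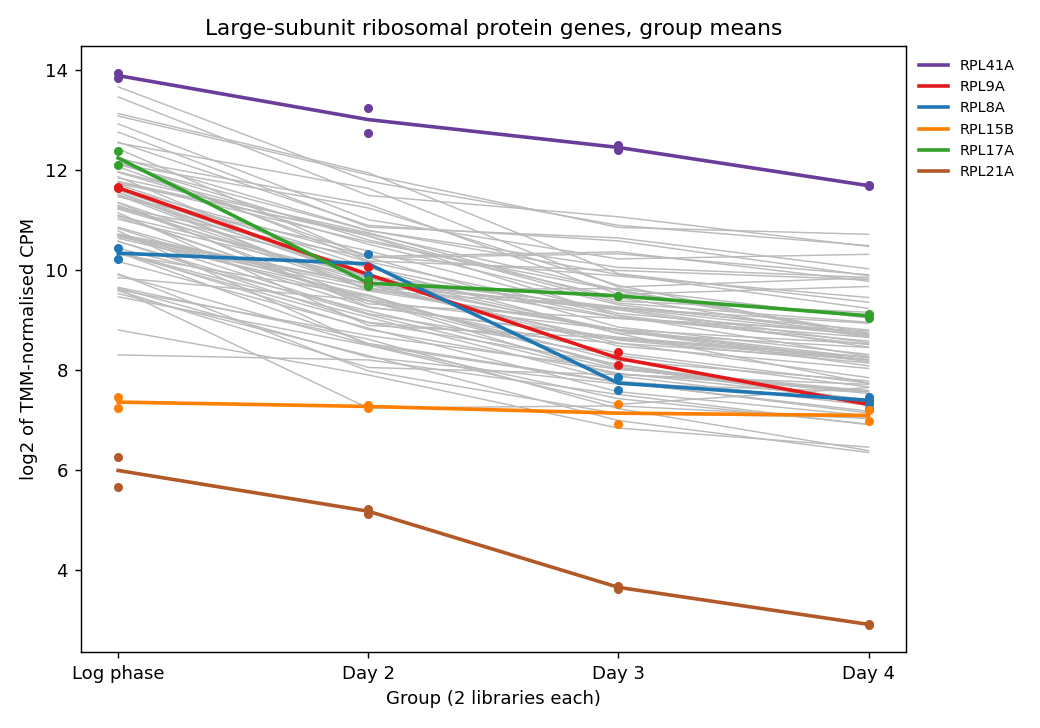
Level of each of the 81 large-subunit genes by group, as log2 of TMM-normalised CPM (vertical axis) in the 4 groups (horizontal axis, 2 libraries each). Grey lines join group means; coloured lines and points show 6 named genes with both libraries. Most lines fall from Log phase to Day 4, while RPL15B stays near its Log phase level.

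Against Log phase, 78 of the 81 genes were lower on Day 2, 80 on Day 3 and 80 on Day 4, and 0 were higher on any day (edgeR quasi-likelihood test, adjusted p under 0.05). No gene was higher at an unadjusted p under 0.05 either, and DESeq2 also called 0 higher. Of all 5930 genes tested, 28.2% were lower on Day 2, 34.4% on Day 3 and 37% on Day 4, and 56.5%, 68.9% and 74.2% changed in either direction. The median log2 fold change of the large-subunit genes was -1.40, -2.40 and -2.91 on the 3 days, which is 2.64-fold, 5.28-fold and 7.52-fold lower, against 0.02, 0.01 and 0.01 for all genes. The 3 comparisons share the Log phase libraries. At the median gene, 46.8% of the Day 4 log2 change was already present on Day 2.

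Role group medians were all below 0 on each day. They were spread most on Day 2, from -1.02 for late-joining genes to -1.92 for the 5S RNP. Single genes of these groups overlapped, however. On Day 2 the 5S RNP genes were at -1.92 (RPL5), -0.832 (RPL11A) and -1.961 (RPL11B). Late-joining genes reached from -0.457 (RPL10) to -2.185 (RPL40A). The P stalk genes, whose proteins form the flexible arm that recruits the translational GTPases, were lower in 7 of 7 cases on Day 4 with a median of -2.69. RPP0, the base of that stalk, went from 4222 and 5345 CPM in Log phase to 2666 and 2441 on Day 2, 707.5 and 754.8 on Day 3 and 834.1 and 797.4 on Day 4. Its drop was thus concentrated between Day 2 and Day 3 (log2 fold change -1.80, SE 0.15, edgeR adjusted p = 1.67e-09), and its Day 4 change from Day 3 of 0.16 (edgeR adjusted p = 0.447) did not pass the test. The partner gene RPP1B behaved in the opposite order, with a Day 2 change from Log phase of -2.26 and a change from Day 2 to Day 3 of -0.26 that did not pass (edgeR adjusted p = 0.168).

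The 5S RNP proteins Rpl5 and Rpl11 bind the 5S rRNA and form the central protuberance. Their 3 genes were all lower on Day 4, at -2.61 for RPL5, -2.73 for RPL11A and -2.62 for RPL11B. RPL5 had 6983 and 8607 CPM in Log phase, 1932 and 2189 on Day 2, 1202 and 1190 on Day 3 and 1365 and 1185 on Day 4, so that its Day 3 and Day 4 libraries overlapped. The L1 stalk, which moves with tRNA leaving the ribosome, is encoded by RPL1A and RPL1B, at -3.01 and -2.58 on Day 4.

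Genes of the polypeptide exit tunnel and its rim were lower in 17 of 17 cases on each day, with a Day 4 median of -2.99. RPL4A, whose protein reaches into the tunnel wall, fell from 9182 and 8820 CPM in Log phase to 4398 and 3510 on Day 2, 892.4 and 1058 on Day 3 and 764.8 and 545.4 on Day 4 (log2 fold change on Day 4 -3.78, SE 0.18, edgeR adjusted p = 7.95e-15). RPL4B, its copy, had 665.8 and 748.1 CPM in Log phase, 380.2 and 340.4 on Day 2, 144.2 and 173.4 on Day 3 and 194.3 and 206.7 on Day 4. The RPL4B libraries of Day 4 lay above those of Day 3, but the difference of 0.34 did not pass the test with all libraries (edgeR adjusted p = 0.10) and was called when either Day 2 library was left out. RPL17A, at the tunnel exit, had most of its drop by Day 2: 4393 and 5319 CPM in Log phase, 817.8 and 890.8 on Day 2, 716.8 and 715.4 on Day 3 and 560.1 and 525.7 on Day 4. Its Day 2 change of -2.51 was the strongest of the 81 genes on that day (edgeR adjusted p = 2.84e-12).

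Among the 26 core and early-joining genes, whose proteins assemble on the pre-rRNA in the nucleolus, 24 were lower on Day 2 and 25 on Day 3 and Day 4. RPL13A was among the genes with the strongest drop, from 1649 and 1883 CPM in Log phase to 294.7 and 427.9 on Day 2, 207.4 and 223.3 on Day 3 and 137.6 and 151.4 on Day 4 (Day 4 log2 fold change -3.61, SE 0.18, edgeR adjusted p = 1.65e-14). With all reads, RPL15B was the one gene that passed in none of the 5 comparisons. It had 151.9 and 175.7 CPM in Log phase, 157.3 and 151.2 on Day 2, 160.5 and 120.6 on Day 3 and 146 and 126.2 on Day 4, and the Day 4 value of replicate 2 and the Day 3 value of replicate 2 were the lowest. Its Day 4 change was -0.27 (SE 0.16, edgeR adjusted p = 0.138), and scaling to total counts alone turned it to 0.18, where the median of all genes was 0.45. With tailed reads alone RPL15B was called lower on Day 2, as were RPL8A and RPL9B, which also did not pass then with all reads. RPL15A, which encodes the same protein of the subunit core, changed by -2.04 (edgeR adjusted p = 1.88e-11).

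RPL8A also broke from the others on Day 2. Its libraries had 1203 and 1388 CPM in Log phase, 1280 and 955.9 on Day 2, 193 and 233.1 on Day 3 and 176.2 and 159.4 on Day 4. The Day 2 libraries overlapped those of Log phase, and the change of -0.21 did not pass (edgeR adjusted p = 0.257); without Day 2 replicate 1 it was -0.43 and passed. With tailed reads alone RPL8A was called lower on Day 2. With all reads it fell by 2.39 on the log2 scale from Day 2 to Day 3, the strongest drop of the 81 genes in that comparison (SE 0.17, edgeR adjusted p = 1.84e-10). Read assignment of RPL8A is uncertain, but RPL8B, where it is not, also had its larger change from Day 2 to Day 3, at -1.98, after a Day 2 change of -0.91 that passed. By Day 2 it had 33.7% of its Day 4 log2 change against 7.23% for RPL8A, and the A to B ratio was higher on Day 2 than in Log phase by 0.69 (edgeR adjusted p = 0.000643).

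The 10 late-joining genes, whose proteins enter the subunit late in assembly, many of them in the cytoplasm, were all lower on each day, with medians of -1.02, -2.16 and -2.82. RPL41A encodes one of the smallest proteins known and was the highest of the 81 genes in CPM, with 15700 and 14800 in Log phase, 9709 and 6845 on Day 2, 5445 and 5802 on Day 3 and 3342 and 3275 on Day 4. It changed by -2.20 on Day 4, 4.61-fold lower. RPL41B had 3266 and 3155 CPM in Log phase, 1083 and 1395 on Day 2, 1364 and 1271 on Day 3 and 901.5 and 853.4 on Day 4, a Day 4 change of -1.87 (edgeR adjusted p = 6.6e-11). RPL10, the gene of a protein with a loop close to the catalytic centre, was slow to fall: it changed by -0.46 on Day 2 (edgeR adjusted p = 0.0133), 17.9% of its Day 4 log2 change. RPL40A, which encodes its ribosomal protein as a fusion with ubiquitin, had 86.5% of its Day 4 log2 change by Day 2.

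The steepest and the second least affected gene of all came from 1 pair. RPL9A had 3192 and 3232 CPM in Log phase, 866.5 and 1062 on Day 2, 274.6 and 327.1 on Day 3 and 167.3 and 149.8 on Day 4, which is 20.3-fold lower on Day 4 (log2 fold change -4.34, SE 0.17, edgeR adjusted p = 5.09e-16). RPL9B had 309 and 322 CPM in Log phase, 296.4 and 292.2 on Day 2, 174.8 and 189.6 on Day 3 and 128.5 and 110.6 on Day 4. Its Day 2 change of -0.10 did not pass (edgeR adjusted p = 0.575), though RPL9B was called lower then with tailed reads alone. Its Day 4 change was -1.40 (edgeR adjusted p = 1.04e-08). RPL22A, for a protein that is dispensable for growth in yeast, was the third lowest, with 4008 and 4028 CPM in Log phase, 1659 and 1626 on Day 2, 523.2 and 561.8 on Day 3 and 325.2 and 293.4 on Day 4 (Day 4 log2 fold change -3.70, SE 0.15, edgeR adjusted p = 9.12e-16). Its copy RPL22B had 739.6 and 799 CPM in Log phase, 243.6 and 286.1 on Day 2, 262.2 and 217.6 on Day 3 and 229.3 and 189.7 on Day 4, a Day 4 change of -1.88 (edgeR adjusted p = 2.14e-10).

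**Figure D2:**
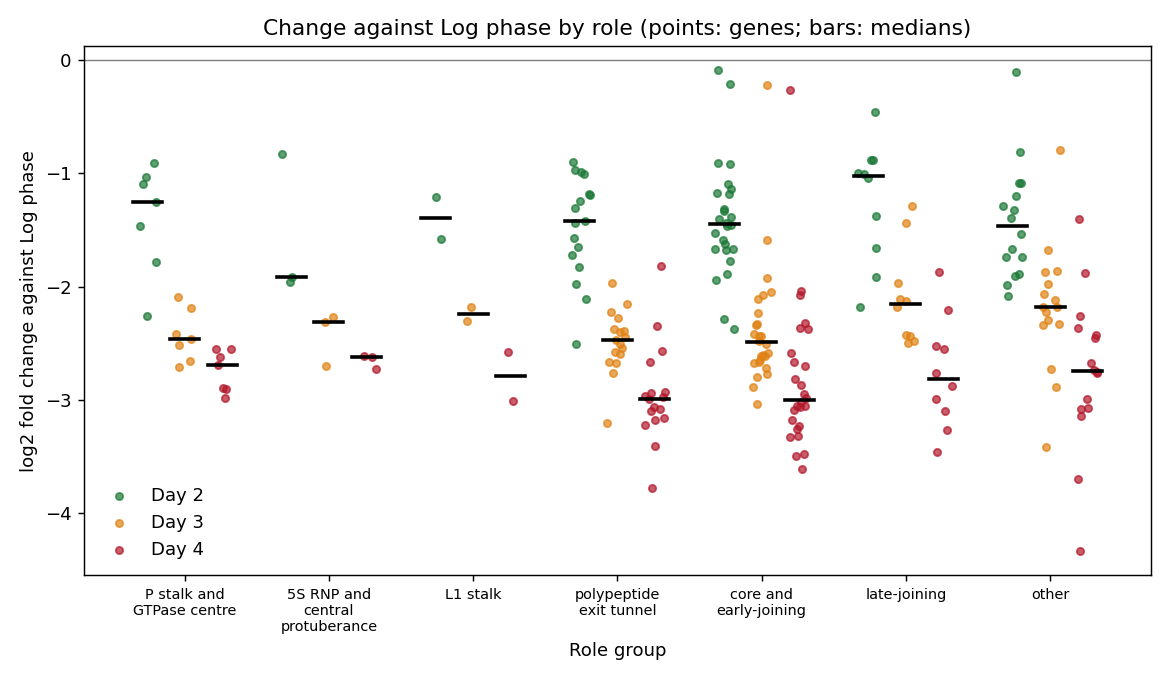
Log2 fold change against Log phase (vertical axis) for the 81 genes, split by role (horizontal axis) and by day (colour); each point is 1 gene and each black bar the median of a role and day. Day 4 medians reach from -2.62 for the 5S RNP to -2.99 for the exit tunnel and slightly lower for the core and early-joining genes, and single genes such as RPL15B at -0.27 and RPL9A at -4.34 lie far from them.

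The pace differed between genes after Day 2. From Day 2 to Day 3, 69 of the 81 genes fell further and 0 rose (background 25.2% lower and 49.4% in either direction; edgeR adjusted p under 0.05), with a median log2 fold change of -0.98. No gene rose at an unadjusted p under 0.05 and DESeq2 called 0, but tailed reads alone put RPL41B and RPL40A above Day 2, and leaving out Day 2 replicate 2 did so for RPL33B. The 12 genes that did not pass were RPL14B, RPL15B, RPL17A, RPL22B, RPL27B, RPL28, RPL30, RPL33B, RPL40A, RPL41B, RPL43B and RPP1B. Apart from RPL15B, each of them had fallen by Day 2. RPL33B, for example, had 722.2 and 847.1 CPM in Log phase, 117.8 and 184 on Day 2 and 174.1 and 136.9 on Day 3, where the Day 2 and Day 3 libraries overlapped.

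From Day 3 to Day 4, 57 of the 81 genes fell and 0 rose (background 14.6% lower), with a median of -0.49. The strongest drops were those of RPL29, RPL14A and RPL9A. RPL29, which encodes a small protein of the subunit surface, had 753.4 and 902.5 CPM on Day 3 and 448.5 and 365.5 on Day 4 (log2 fold change -1.02, SE 0.15, edgeR adjusted p = 6.06e-05). RPL14A had 373.9 and 473.4 CPM on Day 3 and 205.5 and 220.6 on Day 4, a change of -0.99 (edgeR adjusted p = 4.71e-05). Only RPL4B rose at an unadjusted p under 0.05, and DESeq2 called 0 higher. This count depends on single libraries: it was 17 without Day 4 replicate 2, 32 without Day 4 replicate 1 and 35 without Day 3 replicate 2.

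Genes with an intron and genes without one followed slightly different courses. The 53 genes with an intron had a median log2 fold change of -1.52 on Day 2 and -2.99 on Day 4, and the 28 without had -1.06 and -2.70. Between Day 2 and Day 3 the order turned, at -0.86 with an intron and -1.17 without. Of the 12 genes that did not pass between Day 2 and Day 3, 10 have an intron. These are descriptions of the lists, and no test was made of the difference.

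The core of the Rap1 binding site, ACCCNNACA, was searched for on both strands in the 600 bases before the start codon in the R64 genome. It was found for 39 of the 81 genes (48.1%), against 6.46% of the 6021 protein-coding genes of the annotation; a longer form, with AC before the core and 11 letters in all, matched 12 of the 81 genes and 1.1% of all genes. The genes with a match had median log2 fold changes of -1.59 on Day 2, -2.40 on Day 3 and -2.93 on Day 4, and those without had -1.22, -2.41 and -2.89. From Day 2 to Day 3 the medians were -0.82 with a match and -1.16 without, and no test was made of these differences. In 16 of the 35 pairs only 1 copy had a match, and the windows of RPL9, RPL22 and RPL41 are printed as examples, 5′ to 3′ on the strand of the gene, with the matched bases in capitals and 8 bases on each side. They lie at chrVII:228623-228647 on the minus strand (RPL9A), chrVI:65161-65185 on the minus strand (RPL22B) and chrIV:222129-222153 on the minus strand (RPL41B).
RPL9A: tccagaaaTGTTTGGGTttattttt
RPL22B: atgtcaacACCCGTACAtattcaga
RPL41B: gttaccacACCCGTACAcccttatc
By fitted Day 4 change, the copy with the match was the lower of the pair in 6 of the 16, RPL9, RPL7, RPL14, RPL8, RPL40 and RPP1. In the other 10, RPL22 and RPL41 among them, it was the copy without the match. The A to B ratio passed its Day 4 test against Log phase only for RPL9, RPL7 and RPL14, and for RPL22 and RPL1. For the rest of the 16 the copies were not called different, so their order rests on fitted values alone. For RPL9B, RPL22A and RPL41A, and for both copies of RPL4 and RPL15, these letters are not in the window.

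Copies of a pair were then set against each other within each library, where scaling between libraries cancels. In 32 of the 35 pairs the coding lengths of A and B are equal. The A gene had more counts than the B gene in all 8 libraries for 13 pairs, the B gene for 11, and the order was mixed for 11. For 11 pairs 1 copy gave at least 75% of the counts over all libraries. RPL37 was the most one-sided with a certain assignment, with 95.97% and 96.44% of its counts from RPL37A in Log phase and 94.35% and 94.01% on Day 4. RPL36 was one-sided towards B, with 16.06% and 16.32% from RPL36A in Log phase and 10.97% and 10.48% on Day 4. RPL21A gave 3.609% to 7.127% of the RPL21 counts, but its entry is the merged one.

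Summed over the 35 pairs, A copies gave 57.76% and 57.25% of the counts in Log phase, 57.31% and 56.05% on Day 2, 55.12% and 55.7% on Day 3 and 52.05% and 52.31% on Day 4. On Day 4 the A to B ratio was lower than in Log phase for 13 pairs and higher for 1 (edgeR on pairs, adjusted over the 61 A and B pairs of the table; background 29.5% lower and 16.4% higher). The 26 other A and B pairs of the table had 5 lower and 9 higher. Of the 14 large-subunit pairs that changed, 10 were nearer to equal shares on Day 4 than in Log phase and 4 were farther from it, and the leading copy in Log phase was A in 10 of the 14. This tally used all reads and was not made for the 26 other pairs. With tailed reads alone, RPL9B and RPL15B led their pairs on Day 4. Against Log phase the ratio changed for 19 pairs on Day 2, 8 higher and 11 lower (background 27.9% and 29.5%), and for 10 pairs on Day 3, 0 higher and 10 lower (background 18% and 21.3%). The Day 3 count was 6 without Log phase replicate 1, and 18 without either Day 2 library, where RPL23, RPL40 and RPP1 were among the 8 pairs gained and were higher. From Day 2 to Day 3 the ratio was higher for 6 pairs and lower for 14 (background 26.2% and 34.4%). With tailed reads alone 8 of these 20 calls were lost, and the ratio changes of RPL1 and RPL33, called with all reads, had the opposite sign, as that of RPL43 did on Day 2 against Log phase. From Day 3 to Day 4 it was lower for 5 and higher for 0 (edgeR; background 13.1% and 3.28%), a count of 5 that fell to 0 without Log phase replicate 1 or Day 3 replicate 2, 2 without either Day 4 library and 3 without Day 3 replicate 1.

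The RPL9 pair moved most. RPL9A gave 91.17% and 90.94% of the pair's counts in Log phase, 74.51% and 78.42% on Day 2, 61.1% and 63.3% on Day 3 and 56.56% and 57.51% on Day 4. The share was lower at each later day with no overlap, and the log2 ratio of A to B changed by -2.94 on Day 4 (SE 0.14, edgeR adjusted p = 1.53e-10). RPL9B is one of the genes of uncertain assignment. It had more tailed reads than counts, 2558 and 2422 against 2151 and 2036 in Log phase, so the shares above are uncertain. With tailed reads alone, from the other deposited table, the ratio change was -2.80. RPL9B then led on Day 4, with 1282 and 1157 tailed reads against 805 and 695 for RPL9A.

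By counts of all reads, RPL4, RPL22 and RPL15 followed the same course from A-led to more even shares. RPL4A gave 93.24% and 92.18% of the counts in Log phase, 92.04% and 91.16% on Day 2, 86.09% and 85.91% on Day 3 and 79.74% and 72.52% on Day 4 (log2 ratio change -1.98 on Day 4, SE 0.18, edgeR adjusted p = 4.08e-07). RPL22A gave 84.42% and 83.45% in Log phase, 87.2% and 85.04% on Day 2, 66.62% and 72.08% on Day 3 and 58.65% and 60.74% on Day 4 (change -1.82, SE 0.15, edgeR adjusted p = 8.05e-08; -1.12 with tailed reads alone). RPL15A gave 83.19% and 82.06% in Log phase, 71.9% and 73.66% on Day 2, 59.19% and 70.23% on Day 3 and 56.52% and 59.95% on Day 4 (change -1.77, SE 0.27, edgeR adjusted p = 4.4e-05). In tailed reads RPL15B led on Day 4, with 602 and 514 against 429 and 453 for RPL15A. RPL4 and RPL22 held their Log phase share on Day 2, with changes of -0.22 and 0.25 that did not pass, whereas RPL9 and RPL15 had shifted by then.

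RPL7 and RPL14 complete the pairs with the smallest p on Day 4. RPL7A, whose protein is an early-joining one, gave 79.07% and 82.45% in Log phase and 66.63% and 69.46% on Day 4 (change -0.98, edgeR adjusted p = 1.98e-05; -1.69 with tailed reads alone). RPL14A gave 54% and 50.51% in Log phase, 64.3% and 60.43% on Day 2, 39.67% and 49.81% on Day 3 and 31.34% and 34.03% on Day 4 (change -1.17, edgeR adjusted p = 2.88e-05). RPL14 thus passed from a slight lead of A, through a larger one on Day 2, to a lead of B. The 1 pair with a higher ratio on Day 4 was RPL23, in which RPL23A gave 31.95% and 31.84% in Log phase and 41.01% and 43.87% on Day 4 (change 0.66, edgeR adjusted p = 0.000747).

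Several pairs moved on Day 2 and moved back by Day 3, wholly or in part. RPL11A gave 28.43% and 30.97% of the RPL11 counts in Log phase, 49.7% and 46.43% on Day 2, 29.6% and 31.33% on Day 3 and 27.94% and 28.38% on Day 4. In tailed reads RPL11A had 3063 and 2709 against 12580 and 11180 for RPL11B in Log phase. There it had 1209 and 1651 against 2778 and 3687 on Day 2, and 368 and 352 against 2656 and 2667 on Day 4. By tailed reads its share thus also rose on Day 2, but ended below Log phase. RPP1A, for one of the stalk proteins, gave 42.46% and 41.72% in Log phase, 67.73% and 58.67% on Day 2, 45.93% and 52.61% on Day 3 and 48.45% and 47.74% on Day 4. Its Day 3 and Day 4 shares stayed above both Log phase libraries, and its Day 4 ratio, not called with all libraries, was called higher when either Day 2 library was left out. Tailed reads alone differed: RPP1A had 5624 and 4797 against 6796 and 6432 for RPP1B in Log phase. On Day 4 it had 764 and 637 against 1091 and 972, a share below both Log phase libraries. RPL17A went the other way on Day 2, from 71.2% and 73.29% to 55.86% and 54.5%. It gave 72.68% and 69.52% on Day 3 and 71.42% and 70.92% on Day 4. The ratio changes from Log phase to Day 2 were 1.13 for RPL11, 1.25 for RPP1 and -1.08 for RPL17 (edgeR adjusted p = 4.2e-06, 2.77e-05 and 6.7e-06), and each turned back from Day 2 to Day 3 (-1.08, -0.83 and 1.00, edgeR adjusted p = 6.45e-06, 0.000763 and 1.56e-05). These 2 comparisons share the Day 2 libraries.

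**Figure D3:**
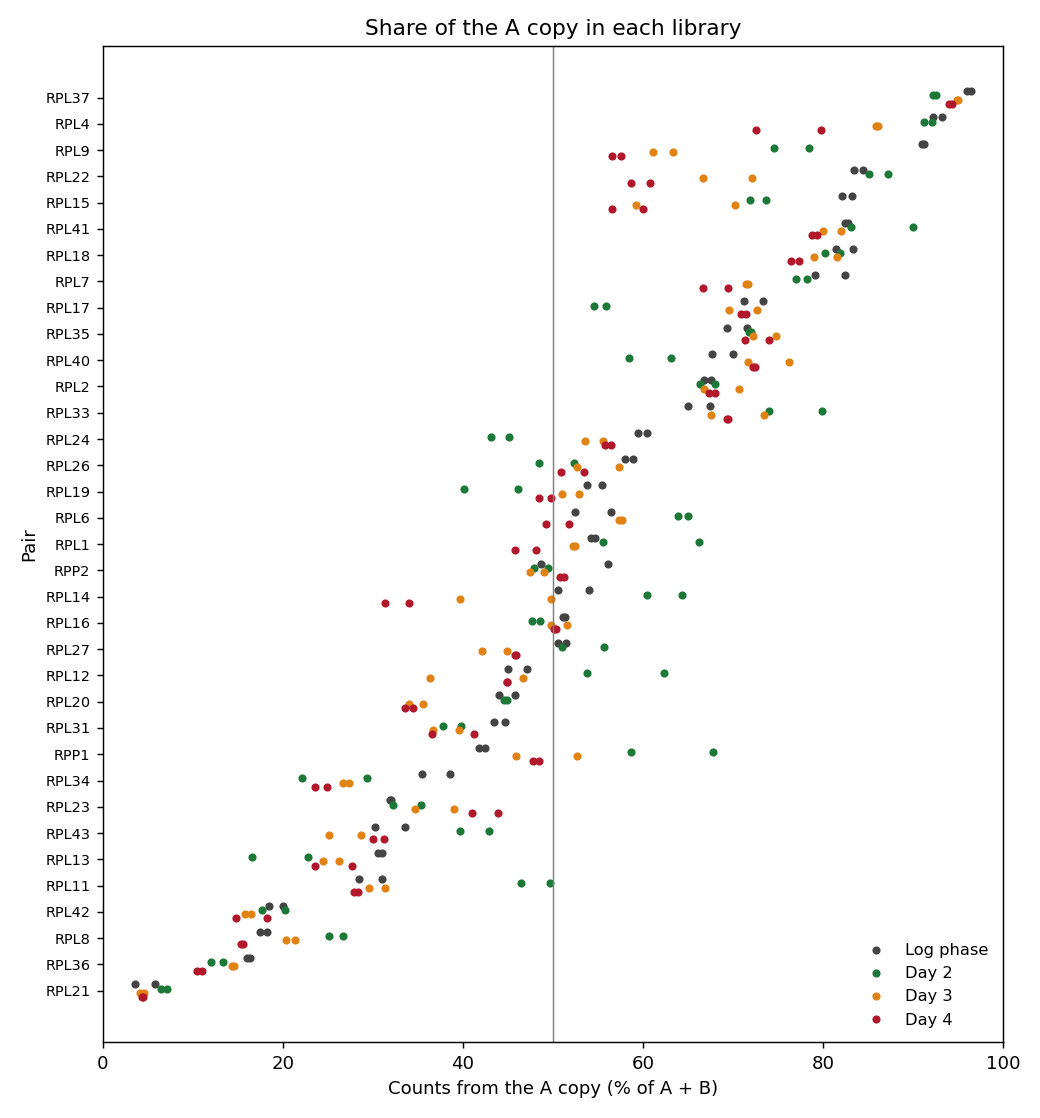
Share of the A copy in the summed counts of A and B (horizontal axis, %) for each of the 35 pairs (vertical axis, ordered by Log phase share) in each of the 8 libraries, coloured by group. RPL9, RPL4, RPL22 and RPL15 run from above 80% in Log phase towards 50% by Day 4, and the Day 2 points of RPL11, RPP1 and RPL17 stand apart from those of the other groups.

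The median poly(A) tail of large-subunit transcripts changed little from Log phase, while that of all genes was shorter on Day 3 and Day 4. Weighted by reads, the mean tail of the 81 genes was 19.6 and 19.02 nt in Log phase, 19.83 and 20.2 on Day 2, 19.22 and 19.63 on Day 3 and 19.33 and 18.93 on Day 4. The read-weighted mean over all entries was 19.53 and 18.94 nt in Log phase and 19.87 and 20.15 on Day 2. It was 18.25 and 18.36 nt on Day 3 and 18.05 and 17.83 on Day 4. Unweighted, the median over the 81 genes was 18.99 and 18.42 nt in Log phase and 19.55 and 19.93 on Day 2. That median was 18.85 and 19.9 nt on Day 3 and 19.46 and 18.63 on Day 4. The median over all genes tested was 19.69 and 19.11 nt in Log phase, 20.35 and 20.49 on Day 2, 18.24 and 18.26 on Day 3 and 18.11 and 17.89 on Day 4. Of the 81 genes, 80 had at least 10 tailed reads in every library and were tested, and RPL21A was not. The median change of these 80 from Log phase was 0.63 nt on Day 2, 0.50 on Day 3 and 0.22 on Day 4, beside 0.96, -0.97 and -1.17 for all 5388 genes tested. Without Log phase replicate 2 or Day 4 replicate 1 the Day 4 median was -0.13 and -0.03, where that of all genes was -1.40 and -1.24. Other ribosomal protein genes had like medians: 0.26 nt on Day 3 and 0.10 on Day 4 for 55 small-subunit genes, and -0.20 and -0.14 for 34 mitochondrial large-subunit genes. No test of these differences was made.

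Few single genes passed the test of tail length. Against Log phase, 1 gene was longer on Day 2 and 0 shorter (limma; background 1.1% longer and 0.0928% shorter), 0 differed on Day 3 (background 0.223% and 2.02%, 2.25% together), and 2 were longer and 4 shorter on Day 4 (background 1.19% and 8.61%, 9.8% together). At an unadjusted p under 0.05, 4 were longer and 5 shorter on Day 3. The share of all genes at this looser threshold was not taken, so these 2 counts have no background here. In both Day 4 libraries the tail lay above both Log phase libraries for 26 of the 81 genes and below them for 16. The same count was not made over all genes, so nothing is read from it. The Day 4 count of 6 fell to 0 without Log phase replicate 1 or Day 4 replicate 2, to 1 without Day 4 replicate 1 and to 2 without Log phase replicate 2, while the changes themselves kept their direction. The share of reads with a tail differed widely between genes over all libraries, from 7.72% for RPL21A to 86.45% for RPL3 with a median of 41.7%, so the tail length of each gene rests on part of its reads.

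RPL22A and RPL8B were the genes with longer tails on Day 4. The RPL22A tail was 18.48 and 18.09 nt in Log phase, 19.51 and 18.53 on Day 2, 20.83 and 20.38 on Day 3 and 22.62 and 22.47 on Day 4, a gain of 4.26 nt (SE 0.78, limma adjusted p = 0.0173). The RPL8B tail was 17.61 and 17.15 nt in Log phase and 20.25 and 20.95 on Day 4, a gain of 3.23 nt (SE 0.77, limma adjusted p = 0.0351; 0.0535 without either Day 3 library). Each of these transcripts was among those that fell in level. RPL35B had the next largest gain, 3.10 nt, with 19.71 and 19.01 nt in Log phase and 22.58 and 22.34 on Day 4 (limma adjusted p = 0.0683), and RPL42B gained 2.19 nt, from 19.17 and 18.63 to 21.58 and 20.61 (limma adjusted p = 0.116).

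RPL15A, RPL23A, RPL24A and RPL10 had shorter tails on Day 4. The RPL15A tail was 24.11 and 24.8 nt in Log phase, 21.79 and 22.1 on Day 2, 20.76 and 21.16 on Day 3 and 19.31 and 17.82 on Day 4, a change of -5.89 nt (SE 0.85, limma adjusted p = 0.00964). The RPL23A tail went from 23.1 and 20.96 nt to 17.32 and 16.39 (-5.18 nt, SE 1.04, limma adjusted p = 0.0221), and that of RPL24A, for a late-joining protein, from 19.96 and 19.3 to 15.25 and 15.13 (-4.44 nt, SE 0.76, limma adjusted p = 0.0153). The RPL10 tail, short from the start, went from 17.61 and 16.13 nt to 12.5 and 13.91 (-3.66 nt, SE 0.79, limma adjusted p = 0.0263). For these 4 genes both Day 4 libraries lay below both Log phase libraries. RPL23A and RPL10 no longer passed when tails were centred on the library median, at -3.78 and -2.26 nt. Centring also brought in 5 genes on Day 4, all longer: RPL32, RPL35B, RPL42B, RPL6A and RPL16B. With at least 50 tailed reads 3 genes were gained on Day 4 and 0 lost, RPL32 and RPL35B among them as longer.

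RPL7B had a tail that was long on Day 2 alone. It measured 18.76 and 18.18 nt in Log phase, 23.71 and 24.26 on Day 2, 18.09 and 18.29 on Day 3 and 18.31 and 18.63 on Day 4. The gain from Log phase to Day 2 was 5.52 nt (SE 0.75, limma adjusted p = 0.0458), and leaving out any 1 of the 8 libraries ended this call at gains of 5.23 to 5.81 nt. The drop from Day 2 to Day 3 was -5.80 nt (limma adjusted p = 0.00709). From Day 2 to Day 3, 2 genes gained tail and 6 lost it (background 0.241% and 21.8%), and 0 passed once tails were centred on the library median. That count was 2 without Day 2 replicate 1, 4 without Day 2 replicate 2, 1 without Day 3 replicate 1 and 2 without Day 3 replicate 2. From Day 3 to Day 4 0 genes passed with limma (background 0%). At an unadjusted p under 0.05, 1 was longer and 3 shorter, and the share of all genes at that threshold was not taken. Across the 80 genes the change in level and the change in tail from Log phase to Day 4 had a Spearman correlation of -0.15, a description only, as both come from the same libraries.

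**Figure D4:**
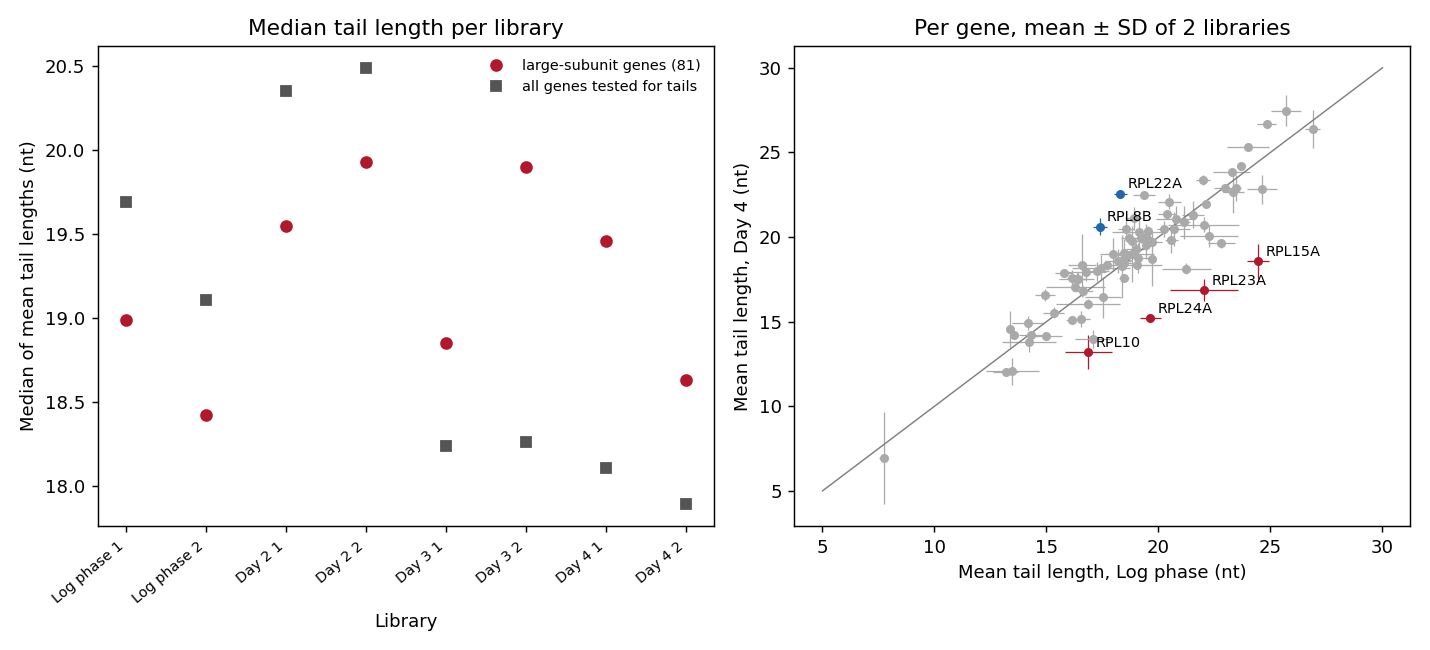
Left, median of the mean tail lengths in nt (vertical axis) for the large-subunit genes and for all genes tested in each library (horizontal axis). Right, mean tail in Log phase against Day 4 in nt for each gene, with the SD of 2 libraries and a line of equality; blue and red mark genes called longer and shorter. The all-gene median is 19.69 and 19.11 nt in Log phase and 18.11 and 17.89 nt on Day 4, while most large-subunit genes lie near the line of equality.

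Tail length separated the copies of many pairs in every condition. Averaged over the 4 groups, the A tail was longer for 15 of the 34 pairs tested and shorter for 14 (limma on A minus B, adjusted over the 59 pairs of the table; background 47.5% and 42.4%, 89.8% together). Such differences were thus common over all 59 pairs, these 34 included. In 9 pairs the A tail was longer in all 8 libraries and in 13 the B tail was. The RPL6 copies differed most among the tested pairs: RPL6A had 15.27 and 14.63 nt in Log phase and 16.3 and 16.82 on Day 4, and RPL6B 26.17 and 25.22 nt and 28.1 and 26.8, a mean difference of -10.74 nt (SE 0.27, limma adjusted p = 6.12e-11). RPL6B is of uncertain assignment.

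RPL19, RPP2 and RPL41 had the next largest differences. The RPL19A tail was 25.08 and 24.16 nt in Log phase and the RPL19B tail 14.68 and 13.67, and over the groups A was 9.47 nt longer (SE 0.24, limma adjusted p = 6.12e-11). RPP2A, a stalk gene, had 13.37 and 13.39 nt in Log phase and RPP2B 23.83 and 22.68, a mean difference of -9.08 nt (SE 0.30, limma adjusted p = 3.72e-10). RPL41A had 13.68 and 13.47 nt and RPL41B 23.35 and 22.62, a mean difference of -8.44 nt (SE 0.22, limma adjusted p = 6.12e-11). Over all libraries 21.81% of RPL41A reads and 70.32% of RPL41B reads had a tail. Whether this, or the read length of 75 bases, bears on such differences between copies was not tested. The last 30 coding bases of the RPL41 copies are the same, at chrIV:130407-130436 and chrIV:221724-221753 on the minus strand.
RPL41A: agacggaaggtgagagccagatccaaataa
RPL41B: agacggaaggtgagagccagatccaaataa
Past the stop codon the RPL41 copies share 48.1% of 150 bases.

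Some pairs changed their tail difference over the days. On Day 4 the A minus B difference was higher than in Log phase for 4 pairs and lower for 7 (background 13.6% and 23.7%), and the count of 11 was 5 without Log phase replicate 1, 4 without Log phase replicate 2 and 6 without Day 4 replicate 2. In RPL15 the A tail had been 4.85 and 5.16 nt longer than the B tail in Log phase, and was 1.49 and 1.32 nt longer on Day 2, 0.6 and -0.66 on Day 3 and -0.15 and -2.7 on Day 4, a change of -6.43 nt (SE 0.86, limma adjusted p = 0.00038). RPL15B itself stayed near 19.26 and 19.64 nt in Log phase and 19.46 and 20.53 on Day 4. The RPL15 copies thus came nearer to each other both in counts and in tail length.

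RPL23 and RPL22 crossed over. RPL23A tails differed from RPL23B tails by 2.26 and 0.83 nt in Log phase, 2.42 and 2.09 on Day 2, -2.7 and -1.21 on Day 3 and -5.07 and -5.37 on Day 4, with a change of -6.77 nt (SE 0.74, limma adjusted p = 9.77e-05). RPL22A tails differed from RPL22B tails by -1.55 and -1.33 nt in Log phase, -3.6 and -3.13 on Day 2, 1.42 and -1.76 on Day 3 and 2.95 and 2.74 on Day 4, with a change of 4.28 nt (SE 0.92, limma adjusted p = 0.00731). In RPL23 the copy that gained share of the counts had the shorter tail on Day 4, and in RPL22 the copy that lost share had the longer one.

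On Day 2 the difference was higher for 3 pairs and lower for 7 (background 10.2% and 22%), a count of 10 that was 5 without Log phase replicate 1, 4 without Log phase replicate 2 and 6 without Day 2 replicate 2. RPL7, RPL11 and RPL14 turned from a longer A tail to about equal or a shorter one, with changes of -5.49, -5.41 and -4.61 nt (limma adjusted p = 0.000454, 0.000398 and 0.000474). RPL1 changed by -8.77 nt (SE 1.83, limma adjusted p = 0.00645), while the RPL1B tail measured 23.13 and 20.89 nt in Log phase, 31.73 and 27.8 on Day 2, 22.54 and 27.31 on Day 3 and 21.04 and 20.41 on Day 4. By itself the RPL1B Day 2 difference of 7.75 nt did not pass (limma adjusted p = 0.0636), and it passed with a minimum of 50 tailed reads. RPL1A stayed between 19.18 and 21.67 nt throughout. RPL1 coding sequences are the most alike of the 35 pairs. On Day 3 the difference was higher than in Log phase for 0 pairs and lower for 3 (limma; background 3.39% and 10.2%), and this count was 1 without Log phase replicate 1 and 5 without Day 3 replicate 2. From Day 2 to Day 3 it was higher for 7 and lower for 5 (background 20.3% and 16.9%), a count of 12 that was 7 without Day 2 replicate 1 or Day 3 replicate 1. From Day 3 to Day 4 limma called 0 pairs (background 0%), and 4 without Day 3 replicate 1.

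**Figure D5:**
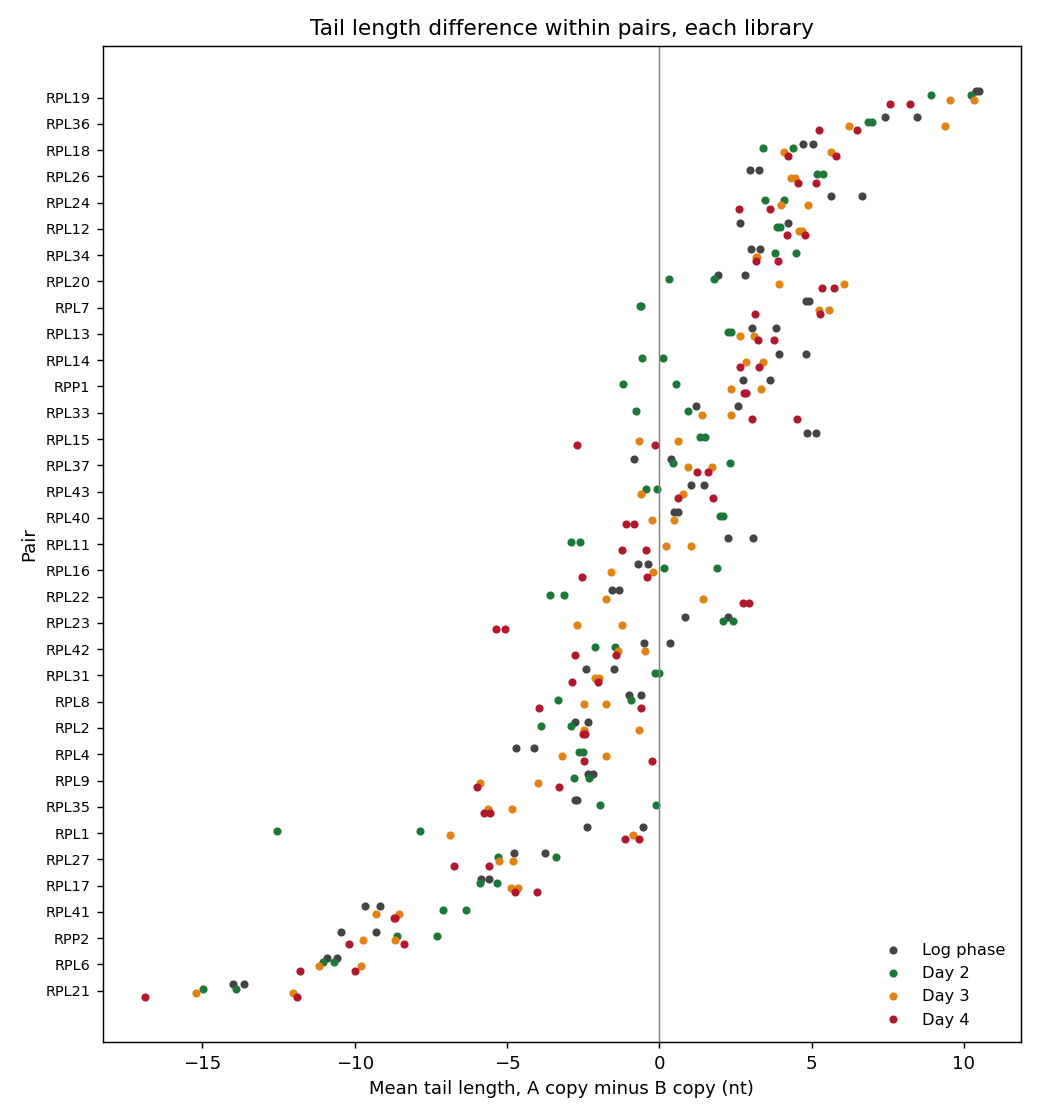
Mean tail of the A copy minus that of the B copy in nt (horizontal axis) for each of the 35 pairs (vertical axis) in each library, coloured by group. RPL19 and RPL36 stand at the right and RPL21, RPL6, RPP2 and RPL41 at the left in every library, while the Day 4 points of RPL23 and RPL15 lie to the left of their Log phase points.

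Small-subunit genes and the factors that escort new ribosomal proteins also fell, and mitochondrial large-subunit genes had calls in both directions. Of 56 small-subunit genes, 55 were lower on Day 4 and 0 higher (edgeR), with a median of -2.85, close to the -2.91 of the large subunit; the difference was not tested. All 9 chaperones and escorts listed were lower on each of the 3 days, 7 of them partners of large-subunit proteins and 2, YAR1 and TSR2, of small-subunit proteins. RRB1, which escorts Rpl3, had 297.8 and 252.3 CPM in Log phase and 32.47 and 40.81 on Day 4 (log2 fold change -2.91, SE 0.20, edgeR adjusted p = 4.88e-12). Of 34 mitochondrial large-subunit genes, 19 were higher and 0 lower on Day 2, and 6 were higher and 15 lower on Day 4, with a median of -0.30. Over all genes tested, 28.3% were higher and 28.2% lower on Day 2, and 37.2% and 37% on Day 4, so the mitochondrial share lower on Day 4 is near that of all genes.

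Of the 10 regulators of ribosomal protein genes listed, 5 were higher and 4 lower on Day 4 (edgeR; background 37.2% higher and 37% lower), shares near those of all genes. CRF1, the corepressor, had 1.868 and 2.689 CPM in Log phase, 37.93 and 18.03 on Day 2, 51.05 and 45.5 on Day 3 and 58.59 and 58.93 on Day 4 (log2 fold change on Day 4 4.69, SE 0.34, edgeR adjusted p = 1.21e-11), so that its colony libraries all lay above those of Log phase. SFP1, an activator of ribosomal protein genes, was also higher on Day 4 (1.88), as were DOT6 (1.80), STB3 (1.75) and FHL1 (0.91). IFH1, the coactivator, was lower at -0.99, in an entry merged with a neighbour, and so were HMO1 (-0.90), SCH9 (-0.55) and TOD6 (-1.26). RAP1 was at 0.08 and did not pass (edgeR adjusted p = 0.754).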

How the data were processed

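Per the labels' protocols, the authors made PAT-seq libraries from total RNA and sequenced them with SOLiD chemistry; the aligner, tail rule and genome build were not stated in the labels or headers. The deposited tables hold read counts and tailed-read counts per gene, mean tail length in nt, and a gene table whose fraction of tailed reads the authors gave over all libraries. Of the 81 genes, 80 lie at the R64 positions.

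Expression used edgeR 4.0.16 (TMM, filterByExpr, quasi-likelihood test, 1 mean per group), and tail length limma 3.58.1 (10 or more tailed reads per library; weights are tailed reads, capped at 100). Pairs used edgeR with a library block for counts and limma on A minus B tails. P-values were adjusted by Benjamini-Hochberg across every gene, or every A and B pair, of the table, and called under 0.05. R 4.3.3, DESeq2 1.42.0, Python, pandas and matplotlib were used, and the tests were tested on simulated data. Smaller counts give less precise values: RPL21A had 65 to 482 counts per library.

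The genes, lists and naming rule were chosen with earlier results of these data known. By the rule, values per library were given for the 4 lowest and 4 highest Day 4 changes, genes not called against Log phase, the 3 largest drops from Day 3 to Day 4, the 4 largest tail gains and losses, the 5 most unequal pairs, the 5 pairs with the smallest p on Day 4 and the 4 largest pair tail differences; RPL5, RPL17A, RPL33B, RPP0, RPL41A, RPL7B, RPL1B and the Day 2 pairs were named after their values were seen. Libraries of the same number did not deviate together from their group means (r -0.0349 to 0.00554), so the fits had no replicate block. TMM factors were 0.794 and 0.825 in Log phase and 1.03 to 1.10 in colonies.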

Additional observations from a re-analysis of the deposited data

How the results depend on the processing

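Against Log phase, counts of lower genes stayed within 1.5 times the reported ones under DESeq2, other normalisations, no filter, tailed reads alone, a replicate block and without the 5 genes of uncertain assignment, where 75 of 76 were lower on each day. Scaling to total counts moved the median of all genes by 0.40, 0.41 and 0.45 on the 3 days and the large-subunit medians on Day 2 and Day 4 to -1.02 and -2.47. Tailed reads alone gave 2 genes higher from Day 2 to Day 3 and a Day 2 share of 9.084%. Tail calls were fragile: on Day 2 the 1 call became 4 with at least 50 tailed reads and 0 with at least 1 tailed read, no weights, log2 lengths, a replicate block or tails centred on the library median (chosen after seeing the data, as was leaving out the 5 genes); Day 3 had 4 with at least 50 tailed reads, and centring gave 0 from Day 2 to Day 3. The replicate block also ended the RPL8B Day 4 tail call (adjusted p = 0.054) and the RPL7B Day 2 call (adjusted p = 0.0678); the numbers do not pair the libraries. On Day 4, centring lost 2 tail calls and gained 5, all longer. The cause of these changes was not tested.

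Leaving out each library in turn gave 76 to 78 lower genes on Day 2, 80 to 81 on Day 3, 80 on Day 4, 64 to 72 from Day 2 to Day 3 and 17 to 67 from Day 3 to Day 4, with 0 to 1 higher in the latter 2. Tail calls ranged over 0 on Day 2, 0 to 6 on Day 4 and 1 to 7 from Day 2 to Day 3. Changed count ratios ranged over 15 to 22 pairs on Day 2, 6 to 18 on Day 3, 11 to 20 on Day 4, 16 to 23 from Day 2 to Day 3 and 0 to 7 from Day 3 to Day 4. Changed tail differences ranged over 4 to 10 pairs on Day 2, 1 to 5 on Day 3, 4 to 12 on Day 4, 7 to 13 from Day 2 to Day 3 and 0 to 4 from Day 3 to Day 4. A group left with 1 library is assumed to vary like the others. With 2 libraries per group, small tail changes are beyond what these data can resolve.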
